A study of Mus musculus with 12 samples.

Results

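Actin filament structure and turnover was followed through 49 genes, picked by symbol from the 56748 genes of one expression table. They encode the cytoplasmic actins, the proteins that hold actin monomers, cut, cap, branch, elongate, bundle and coat the filaments, and the linkers that tie filaments to adaptors and to the plasma membrane. All 49 were found, and 48 reached the mean level of 0.5 FPKM (fragments per kilobase of gene and per M mapped fragments) that was required for a test, as did 12661 genes in all. Lcp1, the bundling protein L-plastin of leukocytes, did not: 4 of its reads, rebuilt from FPKM, stood in the 12 libraries together.

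Cells assemble actin filaments by adding monomers at one end and losing them at the other. Profilins feed monomers to formins and to Ena/VASP proteins, which elongate unbranched filaments, while the Arp2/3 complex, switched on by WAVE proteins, grows branches from the side of existing ones. Thymosins store monomers, cofilins, destrin and gelsolin take old filaments apart, and actinins, filamins and fascin tie filaments into networks and bundles, which in moving tumour cells carry protrusions and contractile fibres.

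The RNA came from cells of the mouse melanoma line named 4599, with 3 libraries in each of 4 groups. Met cells were isolated from lung metastases, and DIF, PIF and TB cells from parts of orthotopic tumours, grown in the tissue of origin, named by these abbreviations, which the labels do not spell out. Before RNA was taken, all cells spent 24 h in 10% serum and 24 h in 1% serum on fibrillar collagen from bovine dermis (1.7 mg/ml), so the RNA is that of cultured cells. Only 1 line was used, and the labels do not say if the replicates are separate animals or cultures. A p-value here sets a difference against the spread of these libraries alone, which may be technical.

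The libraries held 15.5 to 18.4 M reads assigned to genes, as rebuilt from the table. Of the defining markers of pigment cells, Sox10 averaged 217 FPKM in Met, 221 in DIF, 248.5 in PIF and 230.4 in TB, and Mitf averaged 4.26 FPKM in Met, 4.24 in DIF, 11.1 in PIF and 15.2 in TB. The pigment enzymes Tyr and Dct and the antigen Mlana averaged under 0.15 FPKM in every group, and Tyrp1 was listed at 0 in all 12 libraries. The 8 leukocyte markers summed to 1.01 to 1.26 FPKM in Met, 0.749 to 1.41 in DIF, 1.66 to 3.19 in PIF and 1.68 to 2.50 in TB, mostly from Cd68, with Adgre1, Cd3e and Itgam at 0. The 6 fibroblast markers summed to 1.06 to 1.87 FPKM in Met, 0.532 to 1.33 in DIF, 0.598 to 0.696 in PIF and 0.293 to 0.381 in TB. The part of these low levels in the results was not tested.

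The actin genes were among the most abundant of the table. Coordinates of genes are those of the deposited table, whose genome build is not given in the sources used here. Their median level, as the mean FPKM of a gene over the 12 libraries, was 96.0, against 6.14 for all tested genes, and 46 of the 48 lay above that table median. Tmsb4x, which encodes the monomer-storing thymosin beta-4, held rank 5 of all genes by level, Actb rank 8 and Actg1 rank 17. Together the 49 genes took 3.31 ± 0.183% of all FPKM in Met, 3.45 ± 0.147% in DIF, 3.07 ± 0.164% in PIF and 3.53 ± 0.0164% in TB (SD, n = 3 each). Levels within the list ran from 2.09 FPKM for Wasf1 to 2189 for Tmsb4x.

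**Figure D1:**
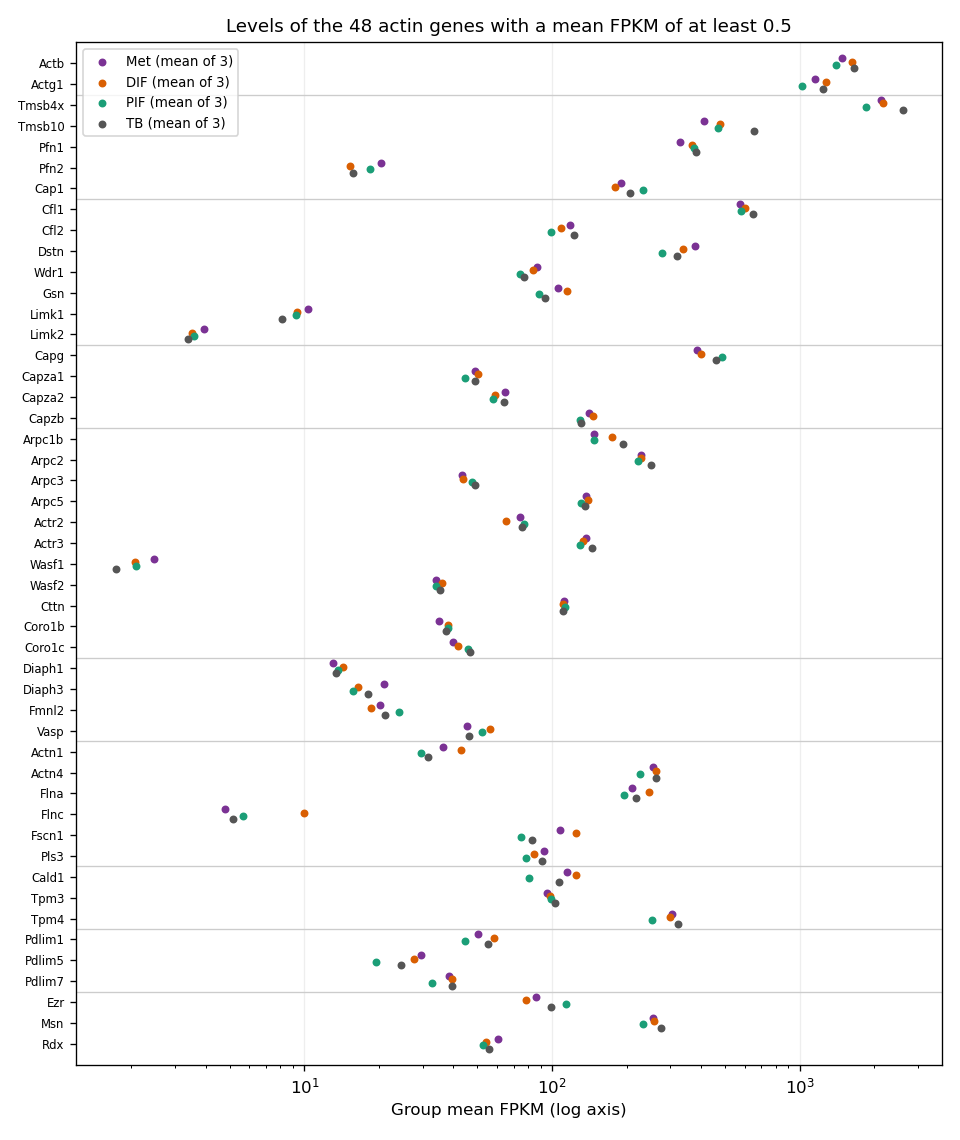
Group mean FPKM of each of the 48 tested actin genes on a log axis, one row per gene by role, with a point for each of Met, DIF, PIF and TB (mean of 3 libraries). By their mean over 12 libraries the genes run from 2.09 FPKM (Wasf1) to 2189 (Tmsb4x), and the 4 points of a gene lie close together against the spread between genes.

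Shifts between groups were small for most of these genes. A gene was called where limma's adjusted p was under 0.05, on log2(FPKM + 1), with 1 fit over all tested genes. In at least 1 of the 6 pairs of groups 27 of the 48 genes were called, and 21 in none. That is 56.2%, beside 31.7% of all tested genes, which stand at lower levels. The actin genes were chosen with earlier results of these data known, so these shares do not make an unbiased comparison. The F test over the 4 groups called 15 genes, or 31.2%, beside 24.8% of all tested. These 15 are all among the 27, and the rest of the 27, such as Actg1, Tmsb4x, Cap1 and Cfl2, were called in a pair only. The p-values were adjusted within each pair and not across the 6 pairs. In bulk RNA, fewer cells of a kind and less RNA per cell cannot be told apart.

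In Met against TB, 3 actin genes were called higher and 4 lower, and 5.32% of all tested genes were called higher and 4.63% lower there (9.94% in either direction). In DIF against TB, 5 were higher and 1 lower, beside 4.26% and 4.36% of all tested (8.62%). In PIF against TB, limma called 0 higher and 8 lower, beside 7.52% and 6.58% of all tested (14.1%). At an unadjusted p under 0.05, 8 genes were higher and 8 lower in Met against TB, and 7 and 6 in DIF against TB. That cutoff gave 3 higher and 17 lower in PIF against TB. Limma-voom on rebuilt reads called 1 higher and 13 lower in PIF against TB, and 2 and 4 in Met against TB. For these counts, shares of all tested genes were not worked out. All 3 comparisons use the same TB libraries, so their calls are not independent.

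In Met against DIF, 1 gene was higher and 1 lower, beside 2.36% and 1.5% of all tested (3.86%). In Met against PIF, 8 were higher and 4 lower, beside 8.85% and 8.8% (17.6%). In DIF against PIF, 10 were higher and 4 lower, beside 9.03% and 9.85% (18.9%). The median log2 differences of the 48 genes were -0.04 in Met minus TB, -0.02 in DIF minus TB, -0.09 in PIF minus TB, -0.03 in Met minus DIF, 0.12 in Met minus PIF and 0.09 in DIF minus PIF. All-gene medians lay between -0.003 and 0.008. With quantile normalization, the medians of Met minus TB and DIF minus TB turned to 0.02 and 0.03. The higher and lower calls then became 6 and 3 in Met against TB, 2 and 5 in PIF against TB, and 7 and 2 in DIF against TB. They became 14 and 3 in Met against PIF, and 16 and 5 in DIF against PIF. Shares of all tested genes called with quantile normalization were not worked out. Limma-voom called 5 higher and 2 lower in DIF against TB.

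**Figure D2:**
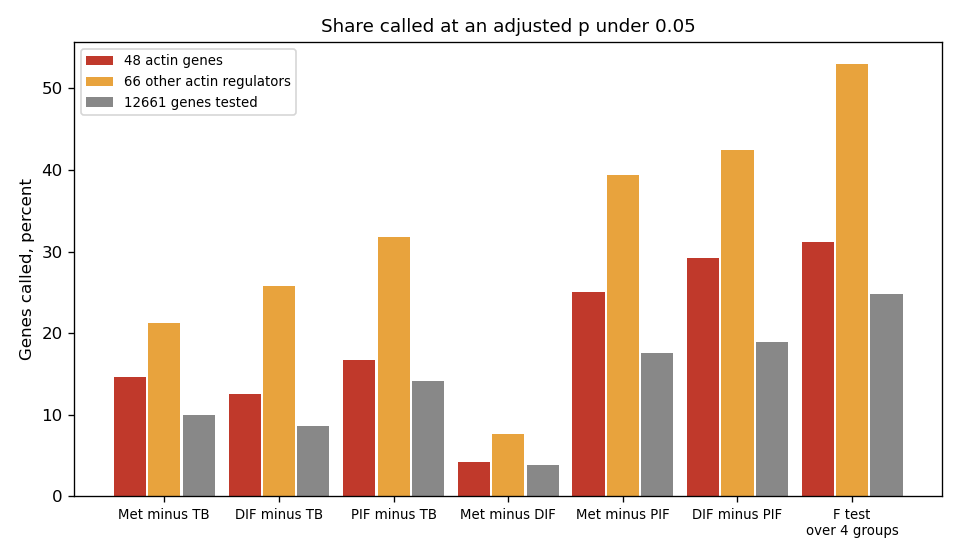
Percent of genes called in either direction in each of the 6 comparisons and by the F test, as bars from 0, for the 48 tested actin genes, 66 other actin regulators and all 12661 tested genes. Over the 6 pairs the share of the actin genes ran from 4.2% (Met minus DIF, against 3.86% of all) to 29.2% (DIF minus PIF, against 18.9% of all), and by the F test it was 31.2% (against 24.8% of all).

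PIF held the lowest of the 4 group means for 27 of the 48 genes (56.2%), against 30.1% of all tested genes. The lowest mean was in Met for 12 genes (25.0%, against 23.1% of all tested), in DIF for 6 (12.5%, against 22.2%) and in TB for 3 (6.2%, against 24.6%). The highest was in Met for 11 (22.9%, against 22.7%) and in DIF for 15 (31.2%, against 23.3%). It was in PIF for 7 (14.6%, against 30.3%) and in TB for 15 (31.2%, against 23.7%). Libraries are named by group and replicate number. The replicate PIF 3 stood lower than the others: the median deviation of the 48 genes from their mean over 12 libraries was -0.14 on the log2 scale in PIF 3, with 8 genes above their mean. It was -0.08 in PIF 1, -0.07 in Met 1 and -0.06 in DIF 1, and between -0.01 and 0.07 in the other libraries, while all tested genes stayed within 0.005 of 0 in each. Without PIF 3, a choice made after seeing the data, PIF was lowest for 25 of the 48 genes (52.1%), against 31.7% of all tested. The median log2 difference of the 48 genes then went from 0.121 to 0.056 in Met minus PIF. It went from 0.086 to 0.075 in DIF minus PIF and from -0.086 to -0.069 in PIF minus TB.

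The numbers of calls moved with single libraries. Here and below, a call lost without a library is one whose adjusted p reached the threshold when that library alone was left out. Losses in the other settings are named below for some genes only, and are counted at the end. In Met against TB, 7 genes became 3, 2 and 1 without Met 1, 2 and 3, and 2, 1 and 1 without TB 1, 2 and 3. In DIF against TB, 6 became 3 without DIF 2, TB 2 or TB 3. In PIF against TB, 8 became 3 without PIF 1, 4 without PIF 3, 2 without TB 2 or TB 3, and 5 without Met 3 or DIF 2. In Met against DIF, 2 became 1 without Met 2, Met 3, DIF 1 or DIF 2. In Met against PIF, 12 became 7 without Met 2 or PIF 1 and 6 without Met 3, and in DIF against PIF, 14 became 9 without DIF 2.

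**Figure D3:**
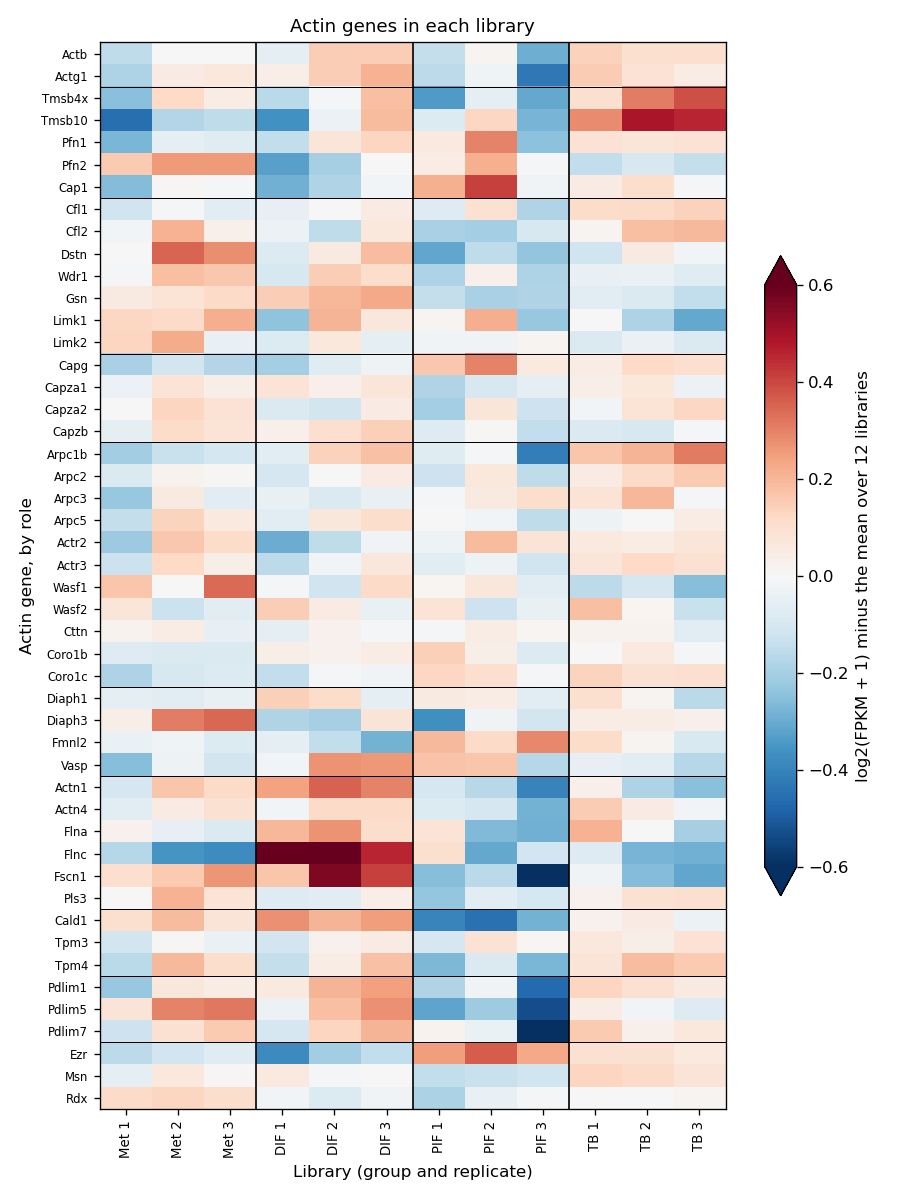
Deviation of each actin gene (rows, by role) in each library (columns, Met, DIF, PIF, TB) from its mean over the 12 libraries, in log2(FPKM + 1), with red above and blue below that mean and the colours ending at 0.6. The PIF 3 column is blue for most genes, with 8 of 48 above their mean, and Flnc is red in the 3 DIF columns.

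The promoters of 4 genes are shown: Flnc, which had the largest log2 difference of the list, Cald1, which had its lowest adjusted p, Flna, the general filamin, to set beside Flnc, and Actg1, which holds the single serum-response (CArG) box found in the list. The 250 bases before each gene start are RefSeq's, build GRCm38.p6, 5′ to 3′ on the gene's strand. The capitals mark the CArG box in Actg1, which is CC, 6 bases of A or T and GG, and CATTCC or its reverse complement GGAATG, the core bound by TEAD factors, in the others. Flnc and Cald1 have another RefSeq promoter each, which holds neither of these motifs, and the one with a match is shown.
Actg1 (chr11:120348496-120348745, minus strand): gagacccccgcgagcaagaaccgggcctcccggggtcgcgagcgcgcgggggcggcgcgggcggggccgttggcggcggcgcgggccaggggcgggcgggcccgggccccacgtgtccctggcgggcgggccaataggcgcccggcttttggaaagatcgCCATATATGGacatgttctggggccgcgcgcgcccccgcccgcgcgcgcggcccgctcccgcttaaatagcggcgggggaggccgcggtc
Flna (chrX:74246535-74246784, minus strand): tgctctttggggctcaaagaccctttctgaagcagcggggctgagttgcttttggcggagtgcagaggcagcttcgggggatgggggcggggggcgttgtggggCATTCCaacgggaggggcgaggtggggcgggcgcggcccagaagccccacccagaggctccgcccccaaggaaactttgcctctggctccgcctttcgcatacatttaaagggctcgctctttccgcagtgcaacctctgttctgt
Flnc (chr6:29433006-29433255, plus strand): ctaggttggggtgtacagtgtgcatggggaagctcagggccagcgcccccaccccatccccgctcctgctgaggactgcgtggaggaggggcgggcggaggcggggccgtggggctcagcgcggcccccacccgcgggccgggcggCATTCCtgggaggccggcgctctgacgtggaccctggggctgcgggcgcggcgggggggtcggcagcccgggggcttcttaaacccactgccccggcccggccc
Cald1 (chr6:34598254-34598503, plus strand): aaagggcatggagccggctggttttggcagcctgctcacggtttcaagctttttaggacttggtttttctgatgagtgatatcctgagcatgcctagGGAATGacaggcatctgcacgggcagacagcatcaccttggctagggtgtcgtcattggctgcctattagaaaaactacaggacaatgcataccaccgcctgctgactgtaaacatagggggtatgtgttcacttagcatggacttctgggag

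Promoters of 45 members were matched by symbol (60 promoters, several genes having more than 1), with none for Actb, Coro1b, Cttn and Diaph1. The CArG box stood in 1 of the 45 genes (2.22%), against 1.62% of 27025 genes with a promoter. CATTCC, searched on both strands, stood in 9 of the 45 (20.0%), which are Actn4, Arpc2, Cald1, Flna, Flnc, Lcp1, Pfn1, Pls3 and Wasf1, against 14.4% of genes. The GC box core GGGCGG, on both strands, stood in 34 genes (75.6%), against 35.4%, and TATAAA in Cald1, Fscn1 and Pdlim5 (6.67%), against 14.3%. The median GC content was 62.4% over the 60 promoters, against 52.4% over all 32851. A match is a description of letters and not of a bound site.

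Both cytoplasmic actins stood lowest in PIF. Actb (chromosome 5, 142888870 to 142892509, minus strand), beta-actin, stood at 1382, 1535 and 1534 FPKM in Met, 1475, 1704 and 1704 in DIF, 1392, 1553 and 1253 in PIF, and 1690.1, 1643 and 1646 in TB. Every TB value lay above every Met and PIF value and within the DIF range. No pair of groups was called for Actb: the DIF minus PIF difference was 0.22 ± 0.09 (SE, adjusted p = 0.115) and the PIF minus TB difference -0.25 ± 0.09 (SE, adjusted p = 0.0869).

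Actg1 (chromosome 11, 120236516 to 120239368, minus strand), gamma-actin, whose promoter holds the CArG box shown above, stood at 1028, 1206 and 1219.8 FPKM in Met, 1200.4, 1292 and 1348 in DIF, 1048, 1145 and 867 in PIF, and 1299, 1241 and 1204 in TB. The DIF and TB values lay above all PIF values, and PIF 3 was the lowest library. PIF against TB was not called for Actg1. DIF minus PIF was called at 0.34 ± 0.10 (SE, adjusted p = 0.0417). The Actg1 call was lost without each of 10 of the 12 libraries, all but Met 1 and PIF 2, at adjusted p of up to 0.12. The proteins of both genes are nearly identical, and how reads were divided between the genes was not tested. The sum of both, in FPKM, was 2635 ± 195 in Met, 2908 ± 203 in DIF, 2419 ± 290 in PIF and 2907 ± 72.5 in TB (SD, n = 3 each).

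The monomer-storing thymosins were highest in TB. Tmsb4x (chromosome X, 165990089 to 165992311, minus strand), thymosin beta-4, stood at 1815, 2347 and 2229 FPKM in Met, 1932, 2145 and 2453 in DIF, 1709, 2075 and 1749 in PIF, and 2308, 2674 and 2831 in TB. All 3 PIF values lay below all TB values, and Met and DIF overlapped TB. It fell in PIF against TB, by a log2 difference of -0.50 ± 0.13 (SE, adjusted p = 0.0238). The Tmsb4x call was lost without PIF 1, PIF 3, TB 2 or TB 3 (adjusted p up to 0.099), with quantile normalization (adjusted p = 0.093) and with no filter on level (adjusted p = 0.17).

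Tmsb10 (chromosome 6, 72934330 to 72935731, minus strand), thymosin beta-10, stood at 359, 436 and 443 FPKM in Met, 383, 479.8 and 561 in DIF, 464, 535 and 405 in PIF, and 598, 691 and 675 in TB. Every TB library lay above every library of the other 3 groups, which overlapped each other. It fell in Met against TB, by a log2 difference of -0.67 ± 0.14 (SE, adjusted p = 0.0105), and that call held without each library. PIF minus TB was called at -0.49 ± 0.14 (SE, adjusted p = 0.0405) and was lost without Met 2, Met 3, DIF 2, PIF 1, PIF 3, TB 2 or TB 3 (adjusted p up to 0.13), and DIF minus TB missed the threshold at -0.48 ± 0.14 (SE, adjusted p = 0.0601). The summed level of both thymosins over that of both actins was 0.962 ± 0.0568 in Met, 0.910 ± 0.0678 in DIF, 0.958 ± 0.0631 in PIF and 1.12 ± 0.134 in TB (SD, n = 3 each).

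Profilin 2 was the monomer-binding gene that rose in Met. Pfn2 (chromosome 3, 57749316 to 57755500, minus strand), the profilin best known from neurons, stood at 19.4, 20.8 and 20.9 FPKM in Met, 13.6, 14.9 and 17.3 in DIF, 17.9, 20.2 and 17.2 in PIF, and 15.5, 16.1 and 15.6 in TB. All Met values lay above all DIF and TB values and overlapped PIF. It rose in Met against TB, by a log2 difference of 0.35 ± 0.08 (SE, adjusted p = 0.0196), and in Met against DIF, by a log2 difference of 0.40 ± 0.08 (SE, adjusted p = 0.0219). The first was lost without Met 2, Met 3 or each TB library (adjusted p up to 0.074), the second without Met 2, Met 3, DIF 1 or DIF 2 (adjusted p up to 0.091). Pfn1, the general profilin, was called in no pair, and the ratio of Pfn1 to Pfn2 FPKM was 16.1 ± 0.669 in Met, 24.0 ± 1.31 in DIF, 20.3 ± 2.23 in PIF and 24.3 ± 0.679 in TB (SD, n = 3 each). Cap1, which recycles monomers from cofilin, fell in DIF against PIF, by a log2 difference of -0.36 ± 0.11 (SE, adjusted p = 0.0399), with overlapping values (164 to 198 FPKM in DIF and 198 to 267 in PIF), and this call was lost without each of Met 3, DIF 1, DIF 2, PIF 1, PIF 2 and the 3 TB libraries (adjusted p up to 0.13).

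Destrin and gelsolin, which take filaments apart, had higher means in Met and DIF than in PIF and TB. Dstn (chromosome 2, 143757240 to 143785244, plus strand), destrin, a relative of cofilin that depolymerises filaments, stood at 324, 415 and 396 FPKM in Met, 307, 338 and 369.8 in DIF, 262, 293 and 276 in PIF, and 299, 338 and 322 in TB. PIF lay below the other 3 groups, which overlapped each other. It rose in Met against PIF, by a log2 difference of 0.44 ± 0.10 (SE, adjusted p = 0.00857), and the call held in every leave-out and alternative. No other pair was called for Dstn, so neither Met nor DIF was called against TB, nor DIF against PIF. Over Cfl1, the general cofilin, the Dstn level was 0.660 ± 0.0606 in Met, 0.564 ± 0.0325 in DIF, 0.482 ± 0.0359 in PIF and 0.492 ± 0.0284 in TB (SD, n = 3 each).

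Gsn (chromosome 2, 35146392 to 35197904, plus strand), gelsolin, which severs filaments and then caps them when calcium rises, stood at 104, 106 and 108 FPKM in Met, 111, 115 and 117 in DIF, 90.5, 87.4 and 88.1 in PIF, and 95.4, 94.4 and 90.4 in TB. The Met and DIF values did not overlap each other and lay above all PIF and TB values, which touched at 90.5 FPKM in PIF and 90.4 in TB. Met against DIF was not called. Gsn rose in DIF against TB, by a log2 difference of 0.29 ± 0.05 (SE, adjusted p = 0.00243), in DIF against PIF, by a log2 difference of 0.37 ± 0.05 (SE, adjusted p = 0.000188), and in Met against PIF, by a log2 difference of 0.26 ± 0.05 (SE, adjusted p = 0.00259), and these calls held in every leave-out and alternative. It also rose in Met against TB, by a log2 difference of 0.18 ± 0.05 (SE, adjusted p = 0.0283). This Gsn difference lost its call without each Met library, TB 2 or TB 3 (adjusted p up to 0.12).

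Cfl2, the muscle-type cofilin, fell in PIF against TB, by a log2 difference of -0.29 ± 0.08 (SE, adjusted p = 0.0282), with 96.8 to 104 FPKM in PIF and 113 to 128 in TB. The Cfl2 call was lost without PIF 1, PIF 2, TB 2 or TB 3 (adjusted p up to 0.11). Cfl1, the most abundant of the set at 527 to 658 FPKM, Wdr1, the cofilin helper AIP1, and the LIM kinases Limk1 and Limk2, which inactivate cofilin by phosphorylation, were called in no pair. Limk1 ran from 7.24 to 10.8 FPKM and Limk2 from 3.33 to 4.36 over the 12 libraries.

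The capping proteins went in different directions. Capg (chromosome 6, 72521374 to 72539966, plus strand), a relative of gelsolin that caps barbed ends without severing, stood at 375, 399 and 381 FPKM in Met, 374, 409 and 421 in DIF, 482, 529 and 448 in PIF, and 444, 467 and 461 in TB. All Met and DIF values lay below all PIF and TB values. Capg was not called in DIF against TB. It fell in Met against PIF, by a log2 difference of -0.33 ± 0.07 (SE, adjusted p = 0.00664), a call that held throughout, and in DIF against PIF, by a log2 difference of -0.28 ± 0.07 (SE, adjusted p = 0.0177). This Capg difference lost its call without DIF 1 (adjusted p = 0.068) or PIF 2 (adjusted p = 0.055). The same call was lost with no filter on level (adjusted p = 0.052) and in a fit of the 2 groups alone (adjusted p = 0.1). Met minus TB, at -0.25 ± 0.07 (SE, adjusted p = 0.0465), was lost without each of 9 libraries, all but DIF 1, PIF 2 and PIF 3 (adjusted p up to 0.15), with quantile normalization (adjusted p = 0.35) and with no filter on level (adjusted p = 0.12). Capza1, an alpha subunit of the heterodimeric capping protein, rose in DIF against PIF, by a log2 difference of 0.17 ± 0.05 (SE, adjusted p = 0.0433). The Capza1 call stood only without Met 1 or PIF 3 among the 12 leave-outs (adjusted p up to 0.14), and a pseudogene of it, at 7.04 FPKM, may share its reads. Capza2 and Capzb, the other subunits, were called in no pair and ran from 53.0 to 66.9 and from 124 to 151 FPKM.

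Of the 6 Arp2/3 subunits in the list, Arpc1b was called and the other 5 were called in no pair, beside 56.2% of the 48 genes and 31.7% of all tested genes called in some pair. Arpc1b (chromosome 5, 145051025 to 145067515, plus strand) stood at 142, 149.9 and 153 FPKM in Met, 157, 181 and 186 in DIF, 156, 164 and 123 in PIF, and 185, 189.8 and 204 in TB. TB lay above all Met and PIF values and overlapped DIF by one library. It fell in Met against TB, by a log2 difference of -0.38 ± 0.10 (SE, adjusted p = 0.0345), and in PIF against TB, by a log2 difference of -0.39 ± 0.10 (SE, adjusted p = 0.0239). The first was lost without each Met or TB library (adjusted p up to 0.13), the second without TB 2 (adjusted p = 0.064) or TB 3 (adjusted p = 0.096). With no filter on level both were lost, at adjusted p of 0.084 and 0.063. The second was also lost in a fit of the 2 groups alone (adjusted p = 0.07). Pdap1, on the opposite strand, overlaps Arpc1b over 1937 bases at 40.4 FPKM, and no label or header says whether reads were counted by strand. Among the other called genes, Cap1, Capza1 and Tpm4 also overlap an opposite-strand gene above 1 FPKM (Ppt1, St7l and Gm16091). Arpc2, Arpc3, Arpc5, Actr2 and Actr3 ran from 38.9 FPKM (Arpc3) to 259 (Arpc2), and a pseudogene of Actr3 stood at 6.21 FPKM.

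Of the regulators of branching, Coro1c and Wasf1 were called. Coro1c (chromosome 5, 113980497 to 114046819, minus strand), coronin 1C, which helps to remove branches, stood at 38.1, 40.5 and 41.0 FPKM in Met, 39.0, 43.0 and 42.7 in DIF, 47.4, 46.7 and 43.1 in PIF, and 47.8, 46.3 and 46.4 in TB. All Met values lay below all PIF and TB values. It fell in Met against TB, by a log2 difference of -0.23 ± 0.06 (SE, adjusted p = 0.0255), and in Met against PIF, by a log2 difference of -0.19 ± 0.06 (SE, adjusted p = 0.0373). The first was lost without each Met or TB library (adjusted p up to 0.096), the second without each Met library, PIF 1, PIF 2, TB 2 or TB 3 (adjusted p up to 0.13). Wasf1 (chromosome 10, 40759471 to 40814566, plus strand), WAVE1, an activator of the complex and the least abundant tested gene of the list (80 to 151 reads per library), stood at 2.45, 2.07 and 2.89 FPKM in Met, 2.06, 1.83 and 2.33 in DIF, 2.10, 2.22 and 1.93 in PIF, and 1.75, 1.86 and 1.57 in TB. All Met and PIF values lay above all TB values, and DIF overlapped the other 3 groups. Wasf1 was not called in PIF against TB. It rose in Met against TB, by a log2 difference of 0.34 ± 0.10 (SE, adjusted p = 0.0488). This Wasf1 difference lost its call without every library but Met 2 and in 6 of 7 other settings. Wasf2, the general WAVE protein, Cttn, cortactin, which stabilises branches, and Coro1b were called in no pair, and Cttn was the steadiest of these at 106 to 115 FPKM.

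Of the elongation factors, the formin Fmnl2 (chromosome 2, 52747872 to 53023816, plus strand), which extends filaments at the leading edge, was highest in PIF, and stood at 20.3, 20.5 and 19.7 FPKM in Met, 20.0, 18.7 and 17.0 in DIF, 24.0, 22.7 and 25.7 in PIF, and 22.6, 21.1 and 19.5 in TB. All PIF values lay above those of the other groups, the lowest of them less than 0.1 FPKM above the highest TB value. Fmnl2 was not called in PIF against TB. It fell in DIF against PIF, by a log2 difference of -0.36 ± 0.07 (SE, adjusted p = 0.00452), and this held throughout. It also fell in Met against PIF, by a log2 difference of -0.25 ± 0.07 (SE, adjusted p = 0.0357). This Fmnl2 difference lost its call without each Met library, PIF 1, PIF 3 or TB 2 (adjusted p up to 0.11) and with quantile normalization (adjusted p = 0.071). The same call was lost with no filter on level (adjusted p = 0.06) and in a fit of the 2 groups alone (adjusted p = 0.053). Diaph3, the formin mDia2, rose in Met against PIF, by a log2 difference of 0.40 ± 0.11 (SE, adjusted p = 0.0242), with 18.1 to 22.6 FPKM in Met and 13.4 to 17.4 in PIF. The Diaph3 call was lost without Met 2, Met 3 or PIF 1 (adjusted p up to 0.094). Diaph1, the RhoA-driven formin mDia1, at 12.04 to 15.1 FPKM, and Vasp, an anti-capping elongation factor, at 41.4 to 60.0 FPKM, were called in no pair.

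**Figure D4:**
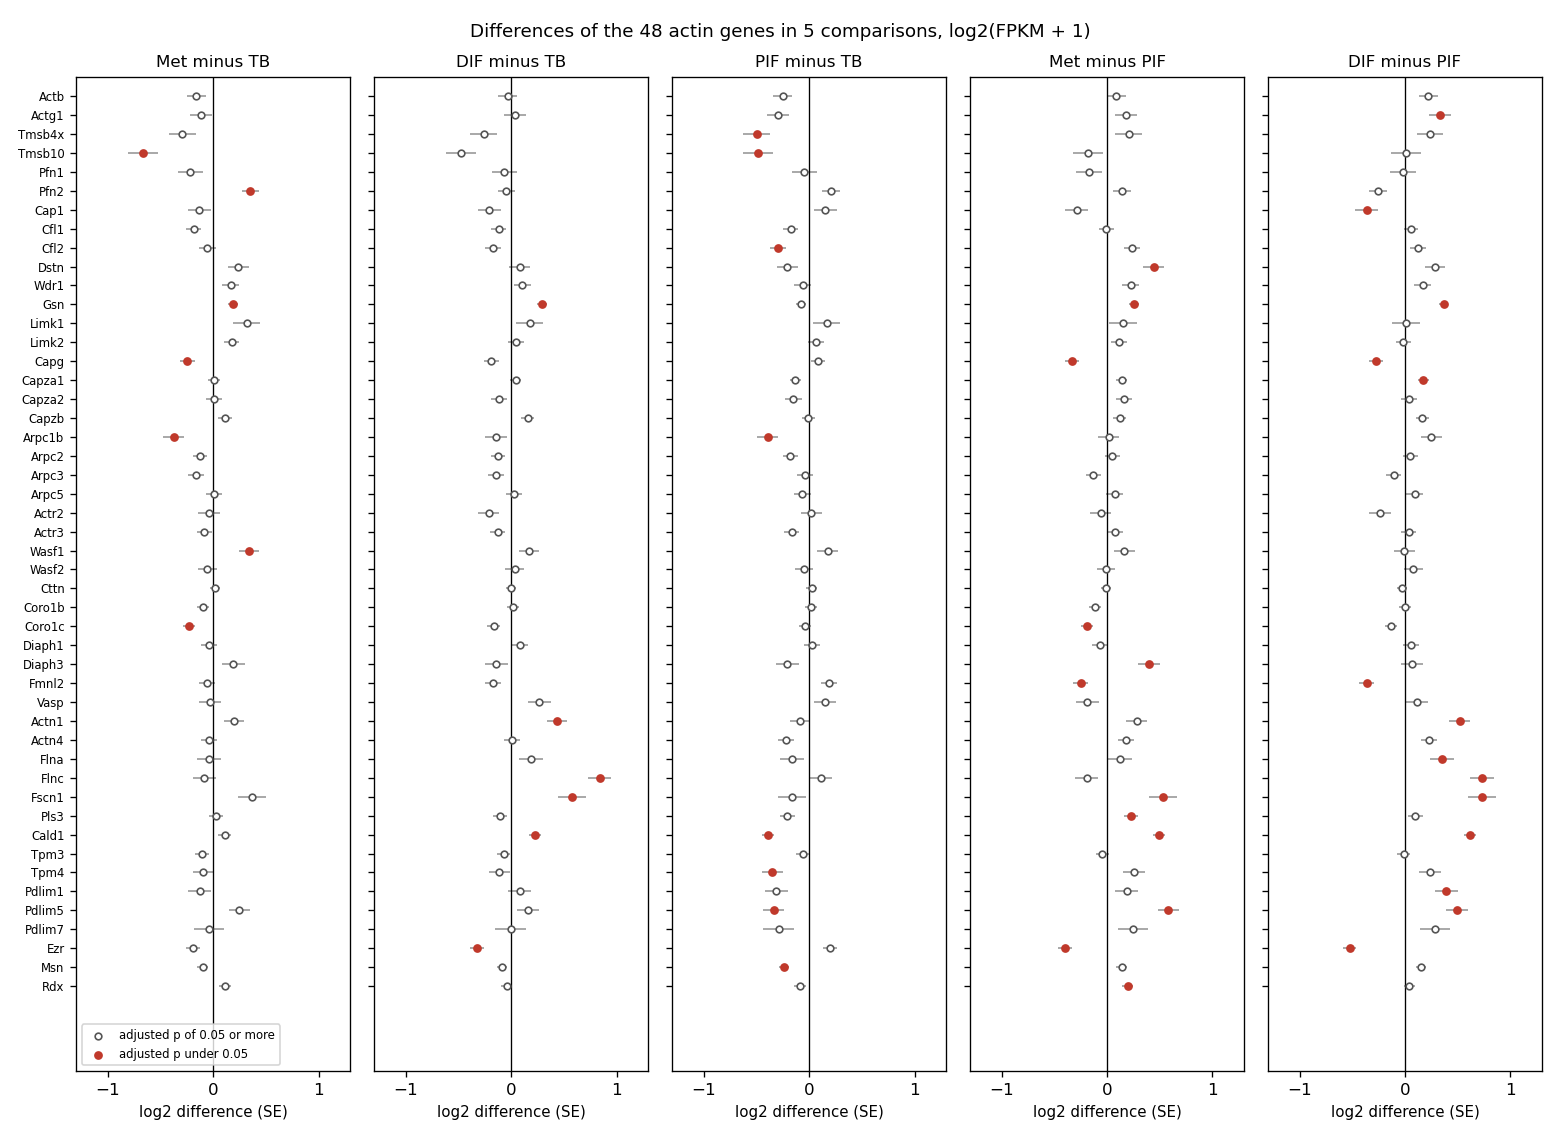
Log2 difference with its SE for each of the 48 actin genes (rows, by role) in Met minus TB, DIF minus TB, PIF minus TB, Met minus PIF and DIF minus PIF, filled red where the adjusted p is under 0.05. In the PIF minus TB panel the 8 filled points lie left of 0, and in the DIF minus PIF panel 10 lie right of 0 and 4 left.

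Of the cross-linkers and bundlers, 5 of the 6 tested (Actn1, Flna, Flnc, Fscn1 and Pls3) were called in some pair, beside 56.2% of the 48 genes and 31.7% of all tested genes, and the single calls of Flna and Pls3 were lost without each of 9 and 4 libraries. Actn1, Flna, Flnc and Fscn1 had their highest mean in DIF. Flnc (chromosome 6, 29433255 to 29461882, plus strand), the filamin of muscle, stood at 5.31, 4.57 and 4.47 FPKM in Met, 10.7, 10.5 and 8.76 in DIF, 6.60, 4.75 and 5.57 in PIF, and 5.73, 4.87 and 4.82 in TB. The 3 DIF values lay above all 9 others, which overlapped. Flnc rose in DIF against TB, by a log2 difference of 0.84 ± 0.11 (SE, adjusted p = 0.000639), and in DIF against PIF, by a log2 difference of 0.73 ± 0.11 (SE, adjusted p = 0.000642), and was lower in Met than in DIF, by a log2 difference of -0.92 ± 0.11 (SE, adjusted p = 0.000742). These calls held in every leave-out and alternative. The added 1 lessens the change of a gene at this level, and 771 to 1818 reads lay behind its values.

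Fscn1 (chromosome 5, 142946098 to 142958940, plus strand), fascin, which bundles the filaments of filopodia and invadopodia, stood at 102, 106 and 115 FPKM in Met, 107, 141 and 127 in DIF, 79.6, 85.2 and 60.4 in PIF, and 93.9, 79.4 and 76.6 in TB. All Met and DIF values lay above all PIF and TB values. Fscn1 was not called in Met against TB. It rose in DIF against PIF, by a log2 difference of 0.73 ± 0.13 (SE, adjusted p = 0.00213), which held throughout, in DIF against TB, by a log2 difference of 0.57 ± 0.13 (SE, adjusted p = 0.0193), and in Met against PIF, by a log2 difference of 0.53 ± 0.13 (SE, adjusted p = 0.0165). The DIF call against TB was lost without DIF 2, DIF 3, TB 2 or TB 3 (adjusted p up to 0.087), and the Met call without Met 3 (adjusted p = 0.063).

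Actn1 (chromosome 12, 80214321 to 80307145, minus strand), alpha-actinin 1, a cross-linker of stress fibres and focal adhesions, stood at 32.2, 38.9 and 37.5 FPKM in Met, 41.0, 44.4 and 42.8 in DIF, 32.2, 30.7 and 26.0 in PIF, and 35.3, 30.2 and 28.9 in TB. The DIF values lay above all others. Actn1 was not called in Met against DIF. It rose in DIF against PIF, by a log2 difference of 0.52 ± 0.10 (SE, adjusted p = 0.00294), which held throughout, and in DIF against TB, by a log2 difference of 0.43 ± 0.10 (SE, adjusted p = 0.018). This Actn1 difference lost its call without DIF 2, TB 2 or TB 3 (adjusted p up to 0.085). Flna, the general filamin, was called in DIF against PIF at 0.35 ± 0.11 (SE, adjusted p = 0.0499), with 232 to 260 FPKM in DIF and 176 to 228 in PIF. This Flna difference lost its call without each of 9 libraries, all but PIF 1, TB 1 and TB 3 (adjusted p up to 0.14). Pls3, T-plastin, rose in Met against PIF, by a log2 difference of 0.23 ± 0.07 (SE, adjusted p = 0.0334), with 86.1 to 99.8 FPKM in Met and 73.4 to 82.4 in PIF. The Pls3 call was lost without Met 2, Met 3, PIF 1 or TB 2 (adjusted p up to 0.13). Actn4, alpha-actinin 4, was called in no pair (206 to 279 FPKM).

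**Figure D5:**
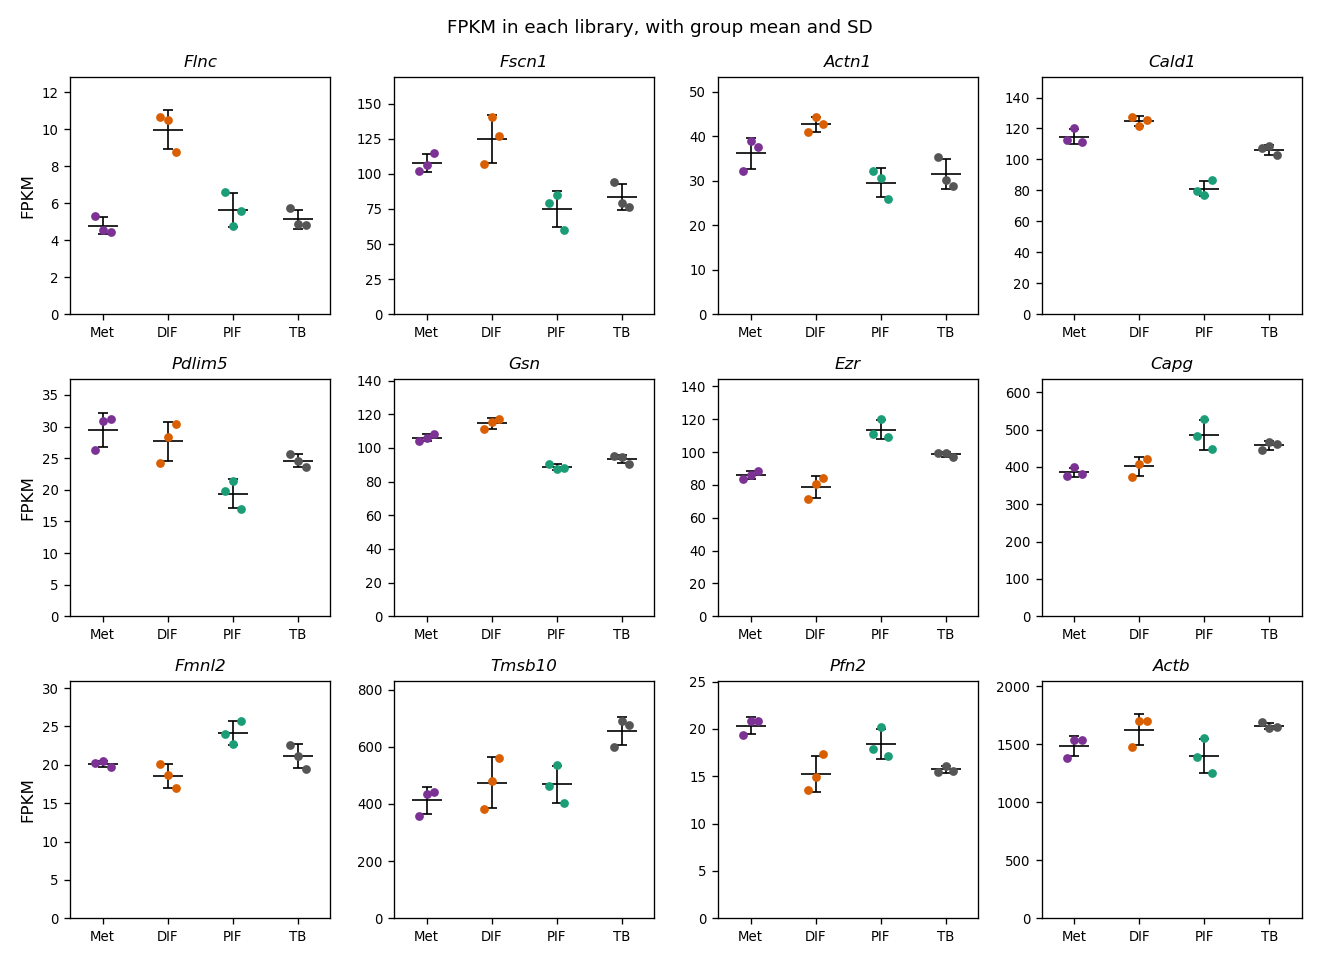
FPKM of 12 of the actin genes described in full, one panel per gene with its own axis from 0, as points for the 3 libraries of Met, DIF, PIF and TB, with a line at each group mean and bars of 1 SD. The 3 DIF points of Flnc (8.76 to 10.7 FPKM) lie above all others, and the 3 PIF points of Cald1 (76.9 to 86.4 FPKM) lie below all others.

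Caldesmon was lower in PIF than in each of the other groups. Cald1 (chromosome 6, 34575435 to 34752408, plus strand), which binds along filaments and restrains myosin, stood at 112, 120.1 and 111 FPKM in Met, 128, 121 and 125 in DIF, 79.9, 76.9 and 86.4 in PIF, and 107, 109 and 103 in TB. No groups overlapped: PIF was lowest, then TB, then Met, then DIF, with Met and DIF apart by the gap of 120.1 to 121 FPKM. Cald1 rose in DIF against PIF, by a log2 difference of 0.62 ± 0.06 (SE, adjusted p = 1.6e-05), and in Met against PIF, by a log2 difference of 0.49 ± 0.06 (SE, adjusted p = 0.000104), and fell in PIF against TB, by a log2 difference of -0.39 ± 0.06 (SE, adjusted p = 0.00125), and these calls held throughout. DIF minus TB was called at 0.23 ± 0.06 (SE, adjusted p = 0.0288) and was lost without each DIF or TB library (adjusted p up to 0.12). Met minus TB, at 0.11 ± 0.06 (SE, adjusted p = 0.291), and Met minus DIF, at -0.12 ± 0.06 (SE, adjusted p = 0.307), were not called. Tpm4, a tropomyosin of stress fibres, fell in PIF against TB, by a log2 difference of -0.35 ± 0.10 (SE, adjusted p = 0.0414), with 242 to 276 FPKM in PIF and 309.9 to 333 in TB. The Tpm4 call was lost without Met 3, DIF 2, PIF 1, PIF 3 or each TB library (adjusted p up to 0.13). Tpm3 was called in no pair and ran from 91.5 to 105 FPKM.

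The PDZ and LIM adaptors, which dock signalling proteins on actinin and filaments, stood lowest in PIF. Pdlim5 (chromosome 3, 141945351 to 142101457, minus strand), ENH, stood at 26.3, 30.8 and 31.2 FPKM in Met, 24.3, 28.4 and 30.3 in DIF, 19.8, 21.4 and 16.9 in PIF, and 25.7, 24.6 and 23.5 in TB. All PIF values lay below all others, and Met lay above TB. Pdlim5 was not called in Met against TB. It rose in Met against PIF, by a log2 difference of 0.58 ± 0.10 (SE, adjusted p = 0.00181), and in DIF against PIF, by a log2 difference of 0.49 ± 0.10 (SE, adjusted p = 0.00455), and both held throughout. PIF minus TB was called at -0.34 ± 0.10 (SE, adjusted p = 0.0456). This Pdlim5 difference lost its call without Met 2, Met 3, DIF 2, PIF 1, PIF 3 or each TB library (adjusted p up to 0.13). Pdlim1, CLP36, rose in DIF against PIF, by a log2 difference of 0.39 ± 0.11 (SE, adjusted p = 0.0262), with 53.7 to 61.5 FPKM in DIF and 37.1 to 50.8 in PIF. The Pdlim1 call was lost without DIF 2, DIF 3 or PIF 3 (adjusted p up to 0.083). Pdlim7, enigma, was called in no pair and ran from 24.3 to 43.1 FPKM.

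The 3 linkers of filaments to the plasma membrane took separate courses. Ezr (chromosome 17, 7005440 to 7050183, minus strand), ezrin, stood at 83.6, 86.2 and 88.6 FPKM in Met, 71.4, 80.7 and 84.2 in DIF, 111, 120.3 and 109 in PIF, and 99.4, 99.6 and 97.1 in TB. The PIF values were the highest, TB came next, and Met and DIF overlapped below both. It fell in DIF against PIF, by a log2 difference of -0.53 ± 0.06 (SE, adjusted p = 0.000142), in Met against PIF, by a log2 difference of -0.40 ± 0.06 (SE, adjusted p = 0.00128), and in DIF against TB, by a log2 difference of -0.33 ± 0.06 (SE, adjusted p = 0.00909), and these calls held throughout. Met minus TB, at -0.20 ± 0.06 (SE, adjusted p = 0.0848), was not called, and neither was PIF minus TB. Msn, moesin, fell in PIF against TB, by a log2 difference of -0.24 ± 0.05 (SE, adjusted p = 0.00836), with 231 to 235 FPKM in PIF and 269.6 to 279 in TB, and this call held without each library and was lost with quantile normalization (adjusted p = 0.15). Rdx, radixin, rose in Met against PIF, by a log2 difference of 0.20 ± 0.05 (SE, adjusted p = 0.0263), with 59.8 to 60.9 FPKM in Met and 48.6 to 55.4 in PIF. The Rdx call was lost without each Met library or PIF 1 (adjusted p up to 0.091). Msn was the most abundant of the 3 in every library.

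Of 49 calls of a gene in a pair of groups, 20 calls, in 11 genes, held in all 12 leave-outs and all 7 other settings: those of Tmsb10, Dstn, Gsn, Capg, Fmnl2, Actn1, Flnc, Fscn1, Cald1, Pdlim5 and Ezr described above. No call changed its direction.

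Other regulators of actin, 94 by list, of which 93 stood in the table and 66 were tested, were counted in the same way. Of the 66, 6 were called higher and 8 lower in Met against TB (21.2%, beside 9.94% of all tested genes), 10 and 7 in DIF against TB (25.8%, beside 8.62%), and 7 and 14 in PIF against TB (31.8%, beside 14.1%). In Met against DIF 1 and 4 were called (7.6%, beside 3.86%), in Met against PIF 16 and 10 (39.4%, beside 17.6%), and in DIF against PIF 20 and 8 (42.4%, beside 18.9%). The F test called 35 (53.0%, beside 24.8%). Eps8, which caps and bundles filaments in protrusions, was at 2.05 ± 0.316 FPKM in Met, 1.08 ± 0.250 in DIF, 10.9 ± 0.678 in PIF and 7.45 ± 0.277 in TB (SD, n = 3 each), with PIF above TB and both above Met and DIF. It fell in DIF against TB by a log2 difference of -2.03 ± 0.10 (SE, adjusted p = 2.1e-07) and in Met against TB by a log2 difference of -1.47 ± 0.10 (SE, adjusted p = 2.2e-06), and rose in PIF against TB by a log2 difference of 0.49 ± 0.10 (SE, adjusted p = 0.00708). Espn, a bundling protein of microvilli, was at 3.57 ± 0.225 FPKM in Met, 3.09 ± 0.270 in DIF, 8.63 ± 0.745 in PIF and 5.60 ± 0.666 in TB (SD, n = 3 each), and Inf2, a formin that also severs filaments, at 52.0 ± 1.16 FPKM in Met, 57.1 ± 4.32 in DIF, 76.4 ± 5.70 in PIF and 52.3 ± 5.68 in TB (SD, n = 3 each), and both rose in PIF against TB. Espn also fell in DIF against TB, and its Met values (3.31 to 3.73 FPKM) lay below all its TB values (5.19 to 6.37 FPKM) too. Tagln2, transgelin 2, a relative of calponin, was at 766 ± 31.5 FPKM in Met, 816 ± 7.19 in DIF, 577 ± 30.3 in PIF and 852 ± 23.2 in TB (SD, n = 3 each) and fell in PIF against TB.

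Cnn1, calponin 1 of smooth muscle, was at 2.48 ± 0.961 FPKM in Met, 2.09 ± 0.624 in DIF, 0.178 ± 0.157 in PIF and 0.284 ± 0.0484 in TB (SD, n = 3 each), and rose in Met and in DIF against TB. Palld, palladin, a scaffold of stress fibres, at 14.1 ± 1.40 FPKM in Met, 15.0 ± 1.26 in DIF, 9.10 ± 1.24 in PIF and 9.001 ± 0.830 in TB (SD, n = 3 each), rose in both as well. Pdlim2 was at 6.69 ± 0.777 FPKM in Met, 13.7 ± 1.47 in DIF, 6.23 ± 1.08 in PIF and 7.05 ± 0.646 in TB (SD, n = 3 each) and rose in DIF against TB. Pdlim4 was at 53.1 ± 4.95 FPKM in Met, 72.5 ± 2.09 in DIF, 53.8 ± 1.10 in PIF and 85.8 ± 1.25 in TB (SD, n = 3 each) and fell in Met, in DIF and in PIF against TB. The DIF call of Pdlim4 was not followed through the leave-outs and alternatives. Cyfip2, a subunit of the WAVE complex, was at 0.485 ± 0.0814 FPKM in Met, 0.302 ± 0.0682 in DIF, 0.884 ± 0.106 in PIF and 1.37 ± 0.0817 in TB (SD, n = 3 each) and fell in Met and in DIF against TB. The Cyfip2 values of PIF (0.776 to 0.988 FPKM) also lay below all those of TB (1.31 to 1.46 FPKM). Mical1, which oxidises actin, was at 12.9 ± 2.08 FPKM in Met, 11.5 ± 0.772 in DIF, 8.46 ± 1.05 in PIF and 12.6 ± 0.550 in TB (SD, n = 3 each) and fell in PIF against TB. Apart from that of Pdlim4 in DIF, these calls against TB held in every leave-out and alternative in which they were tested. Cnn1 in PIF and TB, and Cyfip2 in Met and DIF, averaged under the 0.5 FPKM required for a test. Both genes passed that filter only through the groups where they were high, so their calls are not independent of it. The filter at 2 FPKM left both out.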

How the data were processed

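RNA of 12 libraries was measured with paired reads of 150 bases, per the labels' protocols. The submitters' processing notes name fastp, HISAT2 2.0.5 and featureCounts 1.5.0-p3. The authors deposited FPKM values. Genome build, annotation and strand mode are not stated in labels or headers. FPKM multiplied by gene length, and divided by the value of 1 read in that library (54.4 to 63.8, the smallest product above 0), came out whole within 0.001, and these rebuilt reads summed to 15.5 to 18.4 M per library.

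Genes with a mean of at least 0.5 FPKM were tested, 12661 of 56748. The model was fitted with limma 3.58.1 (R 4.3.3) on log2 of FPKM plus a pseudocount of 1, with 1 mean per group, a trend and 8 residual degrees of freedom, two-sided, and p-values were adjusted by Benjamini-Hochberg over all tested genes within each of the 6 comparisons. A fold change on this scale is understated for genes at low FPKM. The script was tested on simulated data. The members and lists were chosen with earlier results of these data known. Values in every library are given for Actb, Actg1 and each gene that, in some comparison, was called, had 3 values beyond the 3 of the other group and was among the 4 largest rises or 4 largest falls. Of the other actin regulators, the 3 largest rises and 3 largest falls against TB are named, except 1 gene that is not reported here. Alternatives were a pseudocount of 0.1, no filter, a filter at 2 FPKM, quantile normalization, a replicate block, limma-voom with TMM on rebuilt reads, a fit of the 2 groups alone, and leaving out each library. Promoter sequences are RefSeq's (GRCm38.p6).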

Additional observations from a re-analysis of the deposited data

How the results depend on the processing

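Of 49 calls of a gene in a pair of groups, 20 held under all 12 leave-outs and all 7 other settings and 0 reversed. Over the leave-outs, 430 of 588 values stayed past the threshold and 158 did not, and over the other settings 298 of 343 stayed and 45 did not. Of these 45, 18 were lost with no filter, 15 with the 2 groups alone, 6 with quantile normalization, 3 with the replicate block, 2 with limma-voom and 1 with a filter at 2 FPKM. The number of genes called in Met minus TB (7) was 4 with no filter and 1 to 7 over the leave-outs. In DIF minus TB (6) it was 9 with quantile normalization and 3 to 7 over the leave-outs. In PIF minus TB (8) it was 2 with no filter, 14 with limma-voom and 2 to 12 over the leave-outs. In Met minus DIF (2) it was 1 with the 2 groups alone and 1 to 2 over the leave-outs. In Met minus PIF (12) it was 7 with the 2 groups alone, 17 with quantile normalization and 6 to 14 over the leave-outs. In DIF minus PIF (14) it was 9 with no filter, 8 with the 2 groups alone, 17 with limma-voom, 21 with quantile normalization and 9 to 14 over the leave-outs. The F test (15) called 23 with limma-voom, 22 with quantile normalization and 11 to 20 over the leave-outs. No filter adds genes to the fit and to the adjustment, and the fit of 2 groups has fewer libraries. Why the calls moved was not tested for any of these settings. Shares of all tested genes called in these settings were not worked out. The number of genes with the lowest mean in PIF (27) was 24 to 28 over the leave-outs, which were added after seeing the data.

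Replicate numbers were not shown to pair the libraries: correlations of the deviations of same-numbered libraries ran from -0.201 to 0.332. With the replicate number as a block, 7 genes were called in Met minus TB, 7 in DIF minus TB, 8 in PIF minus TB, 2 in Met minus DIF, 14 in Met minus PIF, 15 in DIF minus PIF and 21 by the F test. The least abundant tested gene of the list, Wasf1, had 80 to 151 reads per library.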
